A study of Mus musculus with 9 samples.

Results

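RNA of whole mouse lungs at E18.5, a stage shortly before birth, was compared between wild type lungs and lungs with a conditional knockout (CKO) of Dnmt1 that the submitters classed as weak in phenotype. The comparison took 6 of the 9 libraries of the series, 3 of each kind, and all 27207 genes of the deposited count table, of which 19374 had enough counts to be tested. Per the labels and the series' design text, the weak CKO lungs were Dnmt1-D/D with the transgenes Tbx4-rtTA and Tet-O-Cre and were too small (hypoplastic), but did not bleed widely into the tissue as the strong CKO lungs did. The wild type lungs were given no further allele in the labels. Tbx4-rtTA with Tet-O-Cre is a doxycycline-controlled combination used to reach the mesenchyme of the lung, so epithelium, blood cells and other cells from outside that lineage would keep the gene. The sources used here did not give the timing of doxycycline or the exons deleted. Libraries are called by their titles, WT_265_1, WT_268_1 and WT_549_2 for wild type and MUT_W_265_2, MUT_W_268_3 and MUT_W_549_3 for weak CKO, and values in a row are given in that order. The labels did not state that the lungs came from separate litters, and the p-values may therefore reflect only how far these samples spread.

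DNA methylation of cytosines in CpG pairs is copied to the new strand after replication by Dnmt1, which Uhrf1 guides to hemimethylated DNA. Promoters of many genes that act only in germ cells are methylated in body tissues and stay silent there, and loss of Dnmt1 is a known way to switch them on. In the fetal lung, mesenchyme supplies growth signals such as Wnt2 and Fgf10 to the epithelium and builds the matrix, the smooth muscle and the walls of the vessels.

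The 6 libraries held 29603791 to 33156732 counts. Values per library are CPM, which are counts scaled to a common library total with TMM factors that correct for library make-up. The first principal component of these libraries held 61.49% of the variance and placed the wild type libraries at −57.2 to −44.7 and the weak CKO libraries at 36.5 to 59.3, with MUT_W_549_3 nearest to wild type. Sex differed between libraries. The Y-linked gene Ddx3y stood at 165, 0.0323 and 159 CPM in wild type and 0, 166 and 0.0313 CPM in weak CKO, and Xist, the RNA of the inactive X chromosome, at 2.51, 2076 and 4.51 and 2572, 956 and 2235 CPM, so MUT_W_268_3 held both. Whether that library is from a lung of 1 sex was not tested. The level of 19 erythroid genes, as a mean log2 CPM, was 3.45 to 4.17 in wild type and 3.08 to 3.39 in weak CKO. All 10 genes that mark lung were present, with a summed level of 11072 to 15856 CPM in wild type and 11618 to 12486 CPM in weak CKO, and Sftpc took the most counts of any gene in each of the 6 libraries. Markers of thymus, oesophagus and thyroid (6 genes, of which Krt13, Tg and Rag1 could be tested) summed to 1.52 to 2.86 and 2.79 to 4.29 CPM, and liver plasma protein genes to 28.8 to 51.6 and 51.9 to 81.1 CPM, with 0 calls in both lists by edgeR. In the first list 2 genes rose at an unadjusted p under 0.05 and DESeq2 called 0, and in the second 1 gene rose at that p and in DESeq2.

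Dnmt1 itself (ENSMUSG00000004099, chromosome 9, 20907209 to 20959888 in GRCm38) stood at 79.1, 121 and 97.2 CPM in wild type and 59.1, 69.1 and 80.6 CPM in weak CKO. The highest weak CKO value lay above the lowest wild type value, so the groups overlapped. The log2 change was −0.51 ± 0.17 (SE; adjusted p = 0.0727, edgeR) and did not pass the threshold of 0.05. It was called without WT_265_1 (−0.65, adjusted p = 0.0264), without MUT_W_549_3 (−0.63, adjusted p = 0.049975) and in DESeq2 (−0.52, adjusted p = 0.0157). This value sums all exons and all cell types, so it does not measure which cells lost the gene. Of 16 genes that write, read or erase DNA methylation, 1 was called, the methyl-CpG reader Mbd2 (−0.22), and that call ended without WT_265_1, WT_549_2, MUT_W_265_2 or MUT_W_268_3, or when the erythroid or the Y-linked level was added to the fit. Without MUT_W_549_3 the list gave 2 falls. Of 25 factors that silence germline genes and retroelements edgeR called 0 and DESeq2 1, and 3 passed an unadjusted p of 0.05. Highest in CPM among them were the chromatin remodeler gene Atrx (456, 538 and 505 CPM and 421, 438 and 423 CPM) and the heterochromatin protein gene Cbx5 (299, 365 and 313 CPM and 314, 329 and 323 CPM).

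The large rises were in genes with few or no wild type reads, and the falls were mostly in genes with many. At an adjusted p under 0.05, 2803 of 19374 genes were called (14.5%), 1761 up (9.09%) and 1042 down (5.38%). Single libraries moved these counts: leaving out MUT_W_265_2 gave 1432 calls, MUT_W_268_3 1310 and WT_549_2 1766, while leaving out MUT_W_549_3 gave 2792. A fit with the mean erythroid level of each library as an added term, the erythroid-adjusted fit, gave 1670 calls. A narrower set was therefore also taken, namely calls that passed the threshold in the same direction in 10 further fits, with a log2 change within 1.5 times of the first: 6 fits that each left out 1 library, and 1 each with only the 6 libraries, upper quartile scaling, DESeq2 and a block for the library number. Such calls, said below to hold in every fit, numbered 773 up (3.99%) and 296 down (1.53%). Their median fold was 2.74 for rises and 1.66 for falls. Of the rises 228 exceeded 8-fold, also when genes without a wild type read were set at their lower bound, against 5 of the falls. In the erythroid-adjusted fit 941 of the 1069 were still called. Among the 10 genes that mark lung Tbx4, Nkx2-1 and Tcf21 fell, of which Tcf21 held in every fit; 1 was called without MUT_W_268_3 and 0 in the erythroid-adjusted fit. In 6091 genes (31.4%) the values of the 3 weak CKO libraries did not overlap those of the 3 wild type libraries. Of the 2803 calls 2780 were among them. A lack of overlap stated below for called genes therefore follows from their selection and is no further support.

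By wild type level, 59 of 3640 genes with a mean of 0.1 to 1 CPM rose more than 8-fold in every fit, 9 of 4827 genes with 1 to 10 CPM and 0 of the 10 to 100 CPM (8050) and over 100 CPM (2537) classes. Among 2537 genes over 100 CPM, 3.19% were called up and 12.5% down. Of the 320 tested genes under 0.1 CPM 160 rose over 8-fold in every fit, but most genes at that level could be tested only because they were high in the CKO libraries, so that share is set by the filter. The lower end of the 0.1 to 1 CPM class may be affected in the same way. All 590 genes called up from a wild type mean under 1 CPM together took 0.0130% to 0.0135% of the counts in wild type and 0.188%, 0.195% and 0.134% in weak CKO. No gene went from 10 or more counts in each wild type library to 3 or fewer counts over the weak CKO libraries, while 64 genes with 3 or fewer wild type counts in all had 30 or more counts in each weak CKO library.

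Gene lists are described below by the number of tested members called. In the meiotic, piRNA, Rhox, olfactory, vomeronasal, protocadherin, airway secretory, multiciliated, Cfap, neuroendocrine, alveolar, mesenchyme, retinoic acid, axon guidance, endothelial, capillary, erythroid, macrophage, inflammatory and nerve lists neither the first edgeR fit nor DESeq2 called a member against the direction given, and at most 2 members passed an unadjusted p of 0.05 there. Other edgeR fits called up to 2 members against it in the protocadherin, neuroendocrine, alveolar, retinoic acid and axon guidance lists. Over all genes tested, 9.09% were called up and 5.38% down, and 3.99% and 1.53% held in every fit. The median log2 change of all genes tested was −0.0077.

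**Figure D1:**
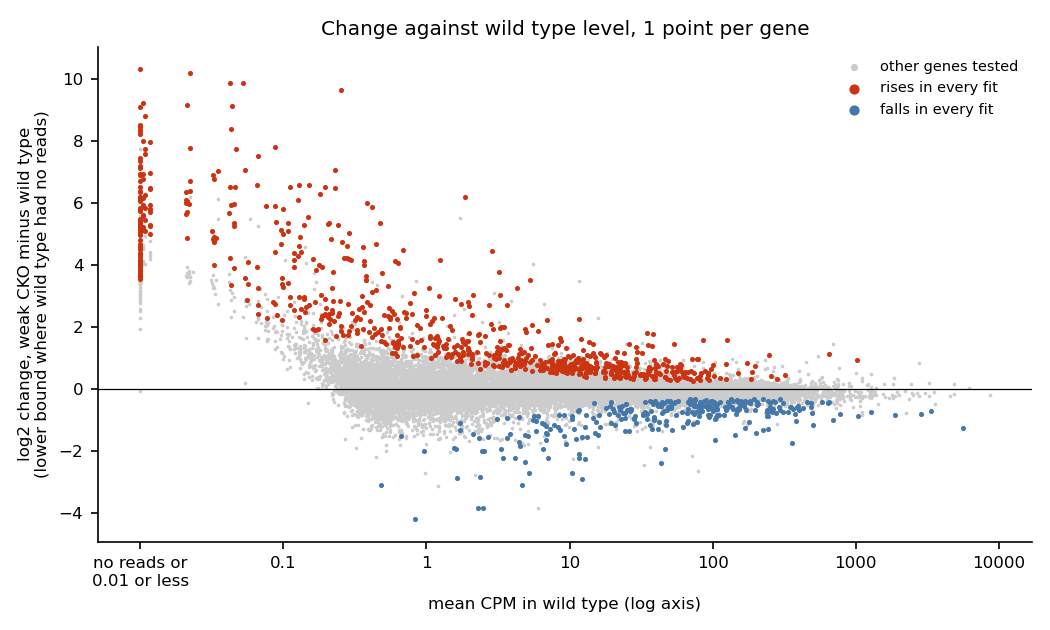
Log2 change in weak CKO (vertical axis) against mean CPM in wild type (horizontal log axis), with 1 point for each of 19374 genes; red and blue points are the 773 rises and 296 falls held in every fit. Rises reach their largest size to the left, where wild type had few or no reads, and the falls lie mostly to the right.

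Regulators of germ cell identity were among the strongest rises. Of 30 listed genes 23 were in the table and 18 could be tested, of which 11 rose, 10 of them in every fit, and 1 fell. The median log2 change of the 18 was 3.63. Members such as Taf7l and Sohlh2 could be tested only because of the CKO libraries, so these values are set in part by the filter. Dazl, whose protein binds and promotes translation of germ cell mRNAs, stood at 0.244, 0.291 and 0.218 CPM in wild type and 228, 234 and 145 CPM in weak CKO (9.63 ± 0.33, SE; adjusted p = 1.45e-06). Per kilobase of exon, its weak CKO level lay above that of 95.76% of the protein-coding genes tested. Taf7l, a germ cell form of a subunit of the general transcription factor TFIID, was at 0, 0.0323 and 0.124 CPM in wild type and 62.3, 61.5 and 39.1 CPM in weak CKO (9.86 ± 0.44). Sohlh2, a helix-loop-helix factor of early spermatogonia and oocytes, was at 0, 0.0646 and 0.0622 CPM in wild type and 53.2, 53.2 and 29.05 CPM in weak CKO (9.89 ± 0.47). Every weak CKO library lay far above every wild type library for these genes, and MUT_W_549_3 was the lowest of the 3. The fall was in Kit, the receptor of stem cell factor, which acts in germ cells but also in mast cells and other body cells; it went from 147 ± 10.7 to 90.4 ± 8.89 CPM (SD, n = 3 each; −0.70). Among genes of the list without a call, picked after their values were seen, were the pluripotency gene Nanog (−0.15) and the meiotic entry gene Stra8 (2.53, adjusted p = 0.165).

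Several of the largest rises had no wild type read at all. The floor used for them is 3 counts in the wild type group as a whole, which equals 0.0327 CPM. Pet2, an X-linked gene, held 50.2, 41.9 and 32.3 CPM in weak CKO and exceeded that floor at least 1267-fold. Tex19.1, a protein of germ cells and placenta that restrains retrotransposons, was at 20.1, 23.2 and 10.6 CPM and at least 549.8-fold higher. Tex101, a surface glycoprotein of germ cells needed for sperm function, reached 11.95, 15.7 and 8.05 CPM and was at least 364-fold higher. For Usp26, an X-linked ubiquitin protease of the testis, the 3 values were 12.9, 12.2 and 6.45 CPM, at least 322-fold higher. In each of these genes MUT_W_549_3 held the fewest reads of the 3, yet all of its values exceeded 6 CPM where wild type held none. Intervals and floors cover counting error only.

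Promoter windows of 6 named genes with large fitted rises and an entry in the RefSeq table (GRCm38.p6, 250 bases before to 50 after the start of the transcript) are shown here because methylation acts on their CpG pairs, which are in capitals; the methylation of these windows was not measured.
Tex19.1, chr11:121145893-121146192, + strand: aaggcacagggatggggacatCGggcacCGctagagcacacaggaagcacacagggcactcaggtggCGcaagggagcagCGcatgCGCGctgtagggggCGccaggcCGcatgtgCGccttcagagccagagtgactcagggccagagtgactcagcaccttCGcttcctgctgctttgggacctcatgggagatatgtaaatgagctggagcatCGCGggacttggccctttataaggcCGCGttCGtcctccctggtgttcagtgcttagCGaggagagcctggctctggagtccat
Tex101, chr7:24672001-24672300, - strand: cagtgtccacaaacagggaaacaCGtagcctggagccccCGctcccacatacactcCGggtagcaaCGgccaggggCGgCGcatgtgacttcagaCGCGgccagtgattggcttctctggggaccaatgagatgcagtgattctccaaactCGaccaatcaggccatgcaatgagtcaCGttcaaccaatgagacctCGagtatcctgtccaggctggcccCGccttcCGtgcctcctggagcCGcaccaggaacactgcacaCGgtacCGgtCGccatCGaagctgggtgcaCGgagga
Usp26, chrX:51801184-51801483, - strand: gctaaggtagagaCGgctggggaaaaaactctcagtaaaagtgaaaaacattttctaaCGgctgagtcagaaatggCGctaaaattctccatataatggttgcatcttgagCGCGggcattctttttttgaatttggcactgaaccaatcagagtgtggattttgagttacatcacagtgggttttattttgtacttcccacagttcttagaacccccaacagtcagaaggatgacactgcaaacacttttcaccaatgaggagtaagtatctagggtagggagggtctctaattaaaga
Sohlh2, chr3:55181794-55182093, + strand: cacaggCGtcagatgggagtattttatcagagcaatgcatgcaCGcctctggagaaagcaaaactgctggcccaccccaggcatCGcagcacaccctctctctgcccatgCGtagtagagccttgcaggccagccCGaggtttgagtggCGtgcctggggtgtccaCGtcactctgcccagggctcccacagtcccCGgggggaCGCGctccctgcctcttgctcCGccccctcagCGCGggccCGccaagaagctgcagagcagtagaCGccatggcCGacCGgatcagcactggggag
Taf7l, chrX:134476441-134476740, - strand: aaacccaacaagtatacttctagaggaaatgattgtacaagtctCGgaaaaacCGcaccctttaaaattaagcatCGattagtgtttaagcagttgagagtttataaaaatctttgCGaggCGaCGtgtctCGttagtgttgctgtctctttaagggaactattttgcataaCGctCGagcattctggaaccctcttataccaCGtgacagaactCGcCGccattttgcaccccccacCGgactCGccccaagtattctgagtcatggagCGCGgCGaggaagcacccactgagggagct
Dazl, chr17:50293571-50293870, - strand: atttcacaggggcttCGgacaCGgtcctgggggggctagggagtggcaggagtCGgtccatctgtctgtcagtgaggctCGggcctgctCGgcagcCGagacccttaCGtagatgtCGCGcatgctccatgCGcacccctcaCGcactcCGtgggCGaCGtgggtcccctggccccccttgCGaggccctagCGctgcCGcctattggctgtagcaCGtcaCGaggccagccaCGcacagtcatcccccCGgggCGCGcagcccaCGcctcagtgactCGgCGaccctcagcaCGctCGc
The windows held 16 CpG pairs in Tex19.1, 19 in Tex101, 5 in Usp26, 17 in Sohlh2, 17 in Taf7l and 28 in Dazl. The median of all 27025 windows of the table was 7, and 85.99% of them held fewer than that of Dazl. Among the 12015 windows of tested protein-coding genes the median was 19, and of the 6 windows only that of Dazl held more. Usp26, with fewer CpG pairs than either median, also rose. The hexamer TCCCGC, the core bound by E2F6 (both strands searched), was in the window of Tex19.1 and in none of the other 5, and 20.019% of all windows held it. The palindrome CACGTG, an E-box of the kind bound by MAX and MGA, was found in Taf7l alone of the 6, and in 7.2414% of all windows. TGCGCA, the core of the NRF1 site and also a palindrome, was in Dazl alone and in 8.0592% of all windows. Windows of tested protein-coding genes held TCCCGC in 33.666%, CACGTG in 9.5547% and TGCGCA in 13.25%. Fewer than 80% of the tested protein-coding genes had a window (77.762%), so promoters of rising and other genes were not compared.

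Genes of the meiotic chromosome axis rose in part. Of 20 tested members 10 rose, 9 of them in every fit, with a median of 1.21. Hormad1 and Tex12 could be tested only because of the CKO libraries, so that share is set in part by the filter. Stag3, a cohesin subunit of meiotic chromosomes, had some wild type reads and went from 2.48, 3.59 and 3.61 to 48.4, 44.7 and 40.4 CPM (3.78 ± 0.14; adjusted p = 6.38e-07), the smallest adjusted p of all genes together with Tex13b. Smc1b, the meiotic partner of that cohesin, was at 0.140, 0.291 and 0.342 CPM in wild type and 7.59, 8.59 and 5.33 CPM in weak CKO (4.76 ± 0.29). Hormad1, an axis protein that guides chromosome pairing, had 1 wild type count and 3.88, 3.49 and 2.29 CPM in weak CKO, so the ratio was 299 (interval 53.3 to 11851); such intervals are at the 95% level. Tex12, a central element protein of the synaptonemal complex, had 3 wild type counts and 5.38, 4.53 and 3.35 CPM in weak CKO, with 137 (interval 46.4 to 665) as its ratio. Members without a call, named after their values were seen, included the lateral element gene Sycp3 (0.46), the recombinase gene Dmc1 (−0.46) and the cohesin gene Rec8 (0.29). The 4 genes given with values did not overlap between groups.

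The piRNA pathway, which uses small RNAs to silence transposons in germ cells, also rose in part. Of 18 tested members 9 rose, 8 of them in every fit (median 0.96). Members such as Fkbp6 could be tested only because of the CKO libraries, so that share is set in part by the filter. Mov10l1, the RNA helicase that feeds piRNA precursors into the pathway, was at 0.105, 0.129 and 0.218 CPM in wild type and 15.9, 17.5 and 11.2 CPM in weak CKO (6.57 ± 0.28). Fkbp6, a co-chaperone of piRNA loading, had 1 wild type count and 8.86, 6.92 and 4.61 CPM in weak CKO, and its ratio was 631 (interval 113 to 24961). Tdrd9, a helicase of the same pathway, was at 0.419, 0.291 and 0.156 CPM in wild type and 12.4, 9.22 and 6.61 CPM in weak CKO (5.02 ± 0.33). Rnf17, a tudor-domain protein of germ cell granules, stood at 0.628, 1.001 and 0.685 CPM in wild type and 5.86, 6.29 and 3.79 CPM in weak CKO (2.78 ± 0.25). Each of these genes was lowest in MUT_W_549_3 among the weak CKO libraries and did not overlap wild type.

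Testis forms of housekeeping genes, which replace their body-wide relatives during sperm formation, also rose: 13 of 18 tested members, 10 in every fit (median 4.26, or 4.11 with genes without a wild type read at their bound). Members such as Tuba3a could be tested only because of the CKO libraries, so that share is set in part by the filter. Rpl39l, a ribosomal protein of spermatocytes, was at 0.105, 0.0969 and 0.0622 CPM in wild type and 22.9, 23.8 and 15.4 CPM in weak CKO (7.82 ± 0.33). Tuba3b, a testis alpha-tubulin, was at 0.0698, 0 and 0.0622 CPM in wild type and 29.9, 31.3 and 19.2 CPM in weak CKO, and its near-identical paralog Tuba3a had 1 wild type count and 9.60, 10.4 and 6.92 CPM in weak CKO, which gives a ratio to wild type of 865 (interval 155 to 34194). Reads of these tubulin genes cannot be told apart with certainty. Slc25a31, the adenine nucleotide carrier of sperm mitochondria, was at 1.85, 0.517 and 1.34 CPM in wild type and 28.5, 22.7 and 15.01 CPM in weak CKO (4.16 ± 0.41). The single fall was in Cox6b2, a testis form of a cytochrome oxidase subunit, with 16.6, 17.4 and 22.7 CPM in wild type and 9.40, 10.3 and 12.9 CPM in weak CKO (−0.80 ± 0.15).

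**Figure D2:**
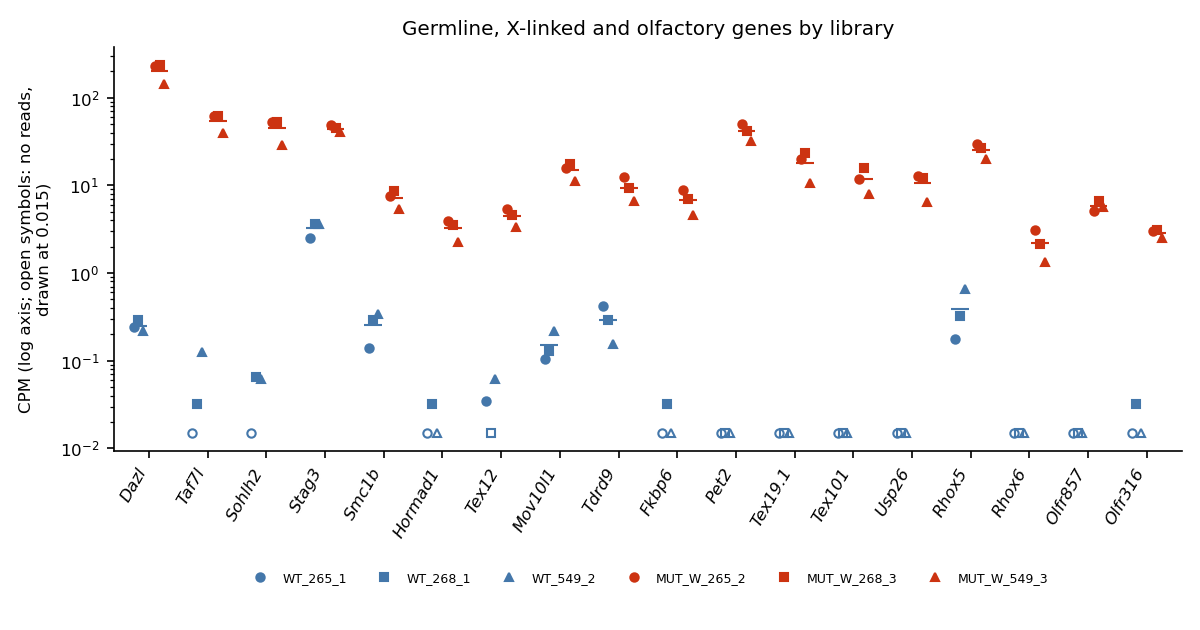
CPM (vertical log axis) of 18 genes in the 3 wild type libraries (blue) and the 3 weak CKO libraries (red), with lines at group means where every library had reads and open symbols at 0.015 where a library had none. The red points of each gene lie above all its blue points, and MUT_W_549_3 (triangles) is the lowest red point in every gene but Olfr857.

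The X chromosome carried more of the large rises for its number of tested genes than any other chromosome. Of 641 tested X-linked genes 45 rose over 8-fold in every fit (7.02%), against 0% to 1.97% on the autosomes, and 41 of the 45 were protein-coding. Genes without a wild type read could be tested only through the CKO libraries, so these shares are set in part by the filter. The chromosome with the lowest share was 18, with 0 of 464. Sex was unequal between the groups, and all 1069 calls held in every fit were also called when the Y-linked level was added to the fit. That fit gave 1911 calls in all, against 2803 without the added term. In MUT_W_268_3, which held both Ddx3y and Xist, the Y-linked level may not stand for the dose of X-linked genes.

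The Rhox cluster, a set of X-linked homeobox genes that act in testis, ovary and placenta, was higher in weak CKO. All 15 tested members rose (9 in every fit), and the median was 6.23, or 4.09 with the 11 members without a wild type read at their bound; 4 more members were too low to test. Most members could be tested only because of the CKO libraries, so that share is set in part by the filter. Their sum was 0.209 to 0.685 CPM in wild type and 27.7 to 43.4 CPM in weak CKO. Rhox5, a placental and Sertoli cell gene that is known to be methylated in the embryo proper, made up most of it with 0.174, 0.323 and 0.653 CPM in wild type and 29.6, 26.4 and 20.1 CPM in weak CKO (6.00 ± 0.33; adjusted p = 8e-06). Rhox2d, at 3.03, 2.27 and 1.88 CPM, was at least 73.2-fold above the wild type floor, and Rhox6, at 3.10, 2.12 and 1.35 CPM, at least 66.9-fold. The copies of Rhox2 are near-identical, so their single values are uncertain. With Gm9, 14 of these genes formed the longest run of neighbouring tested genes called up, 15 genes over 920.6 kilobases of chromosome X (37209348 to 38129967, GRCm38), of which 10 held in every fit. Untested genes are passed over in such a run, so its length is also set in part by the filter.

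Other families of testis and cancer genes, many of them X-linked, were called in part. Of 29 tested genes of the Mage, Xlr, Prame and Ssx families 17 rose, 9 in every fit (median 2.49, also with genes without a wild type read at their bound). As 11 of the 29 had no wild type read and passed the filter through CKO libraries, the share called is set in part by the filter. In these families 1 member fell, a call lost without WT_268_1, WT_549_2, MUT_W_265_2 or MUT_W_268_3, and 2 fell without MUT_W_549_3. Xlr3c, of a family expressed in lymphoid and germ cells, was at 5.04, 5.70 and 3.54 CPM with no wild type read, at least 146-fold higher. Xlr4a, with some reads in wild type, was at 0.209, 0.678 and 0.249 CPM in wild type and 4.39, 4.65 and 4.07 CPM in weak CKO (3.51 ± 0.37). Pramel1, on chromosome 4, reached 1.29, 1.46 and 0.627 CPM from no wild type read, at least 34.5-fold higher. The summed level of the families was no higher in weak CKO (670.6 to 764 CPM) than in wild type (753 to 860 CPM); most of those counts were of Maged1 (−0.18) and Maged2, which are expressed in many tissues and were named after their values were seen. Trap1a, a tumour rejection antigen gene of the X chromosome, rose from 0.0698, 0.162 and 0.156 to 15.4, 13.6 and 9.81 CPM (6.59 ± 0.30), and Pnma5, a paraneoplastic antigen gene, from 0.0349, 0.0323 and 0.0934 to 9.26, 7.61 and 6.55 CPM (7.06 ± 0.34).

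**Figure D3:**
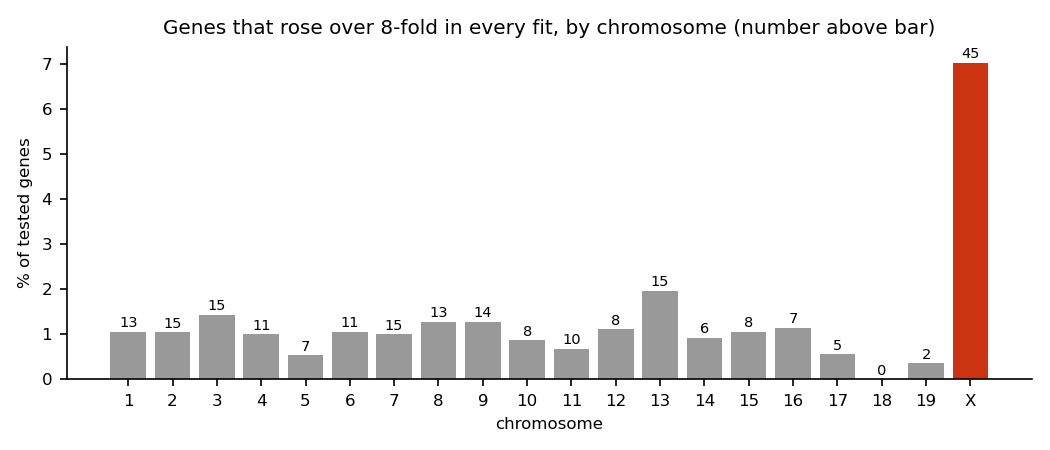
Share of tested genes (vertical axis, in percent) that rose over 8-fold in every fit on each chromosome, with the number of such genes above each bar. Chromosome X stands at 7.02%, and the autosomes at 1.97% or less. The shares are of tested genes and are set in part by the filter.

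Olfactory receptor genes, which normally act in single sensory neurons of the nose, also rose. The table held 110 of them, 33 could be tested, and 21 rose, 16 of them in every fit (median 5.85, or 3.02 with the 14 genes without a wild type read at their bound). Those 14 passed the filter through CKO libraries, so the share called is set in part by the filter. Olfr857 on chromosome 9 was at 5.04, 6.62 and 5.70 CPM, at least 177-fold above the floor. Olfr1054 on chromosome 2 was at 3.64, 5.31 and 3.10 CPM, at least 123-fold above it. Olfr316, with 1 wild type count, was at 2.997, 3.07 and 2.51 CPM, for a ratio of 266 (interval 47.3 to 10525). Unlike the germline genes above, Olfr857 was not lowest in MUT_W_549_3. Per kilobase of exon, Olfr857 lay above 31.2% of the protein-coding genes tested, far below Dazl. The olfactory genes Olfr857, Olfr858-ps1 and Olfr859 lay next to each other among tested genes, with Gm7769 beside them, and all 4 were called up. Untested genes between them are passed over here too. Of 8 tested vomeronasal and trace amine receptor genes 3 rose, 1 in every fit, namely Vmn2r97, with 3 wild type counts, 0.545, 0.805 and 0.407 CPM in weak CKO and a ratio of 17.9 (interval 5.81 to 89.3).

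Other genes that rose belonged to neither group. Cdh19, a cadherin of Schwann cell precursors, was at 0.209, 0.355 and 0.124 CPM in wild type and 29.7, 39.9 and 24.5 CPM in weak CKO (7.07 ± 0.34). Kcnh1, a voltage-gated potassium channel of brain that is also found in tumours, was at 4.95, 6.10 and 4.73 CPM in wild type and 67.98, 64.1 and 48.9 CPM in weak CKO (3.52 ± 0.18; adjusted p = 4.31e-06). Kcne4, a subunit that restrains potassium channels, was at 6.49, 7.95 and 6.35 CPM in wild type and 38.8, 35.9 and 22.5 CPM in weak CKO (2.22 ± 0.20). For all of these genes the lowest weak CKO library, MUT_W_549_3, was far above the highest wild type library. Clvs1, a lipid-binding protein of nerve cells, was at 0.0698, 0.0969 and 0.0311 CPM in wild type and 15.4, 15.7 and 7.52 CPM in weak CKO (7.53 ± 0.50). Serpinb1c, of a family of leukocyte elastase inhibitors, was at 0.140, 0 and 0 CPM in wild type and 10.2, 10.7 and 9.53 CPM in weak CKO (7.73 ± 0.48), with weak CKO values that lay close together. Of 70 tested potassium channel genes 13 rose and 5 fell, 5 and 2 of them in every fit.

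Homeobox genes of the Hoxc cluster, which set position along the body axis, rose as neighbours among tested genes. Hoxc4 was at 0.349, 0.258 and 0.405 CPM in wild type and 2.21, 2.36 and 1.63 CPM in weak CKO (2.60 ± 0.25), and Hoxc5 at 0.0698, 0.194 and 0.124 CPM in wild type and 0.817, 1.34 and 0.971 CPM in weak CKO (2.96 ± 0.46). Hoxc6 had no wild type read and 1.46, 1.67 and 0.783 CPM in weak CKO, at least 39.9-fold above the floor. Together these 3 genes formed a run of called genes over 69.4 kilobases of chromosome 15. Such a run passes over untested genes, and Hoxc6 could be tested only because of the CKO libraries. Hoxb8 was at 1.40, 1.42 and 1.40 CPM in wild type and 2.79, 5.31 and 4.79 CPM in weak CKO (1.61 ± 0.25). Over the Hox genes 22 were tested, and 6 rose and 3 fell, with a median of −0.04; 4 of the rises and 0 of the falls held in every fit. The falls, named after their values were seen, were Hoxa2 (−0.54), Hoxa5 (−0.51) and the antisense gene Hoxb5os (−1.58), uncertain because the use of strand was not given in the sources. Of these 1 was called without WT_549_2, without MUT_W_265_2 and in the erythroid-adjusted fit, and 0 without MUT_W_268_3. Prrx1, a homeobox gene of limb and craniofacial mesenchyme, went from 19.6, 24.5 and 20.4 to 55.5, 47.5 and 44.1 CPM (1.19 ± 0.14). Of 46 tested clustered protocadherin genes, whose promoters are known to be chosen by DNA methylation, 12 rose, 4 of them in every fit, among them Pcdhga7 (0.79) and Pcdhga3 (0.79). The 12 became 7 without WT_549_2, 5 without MUT_W_265_2 or MUT_W_268_3, and 7 in the erythroid-adjusted fit.

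**Figure D4:**
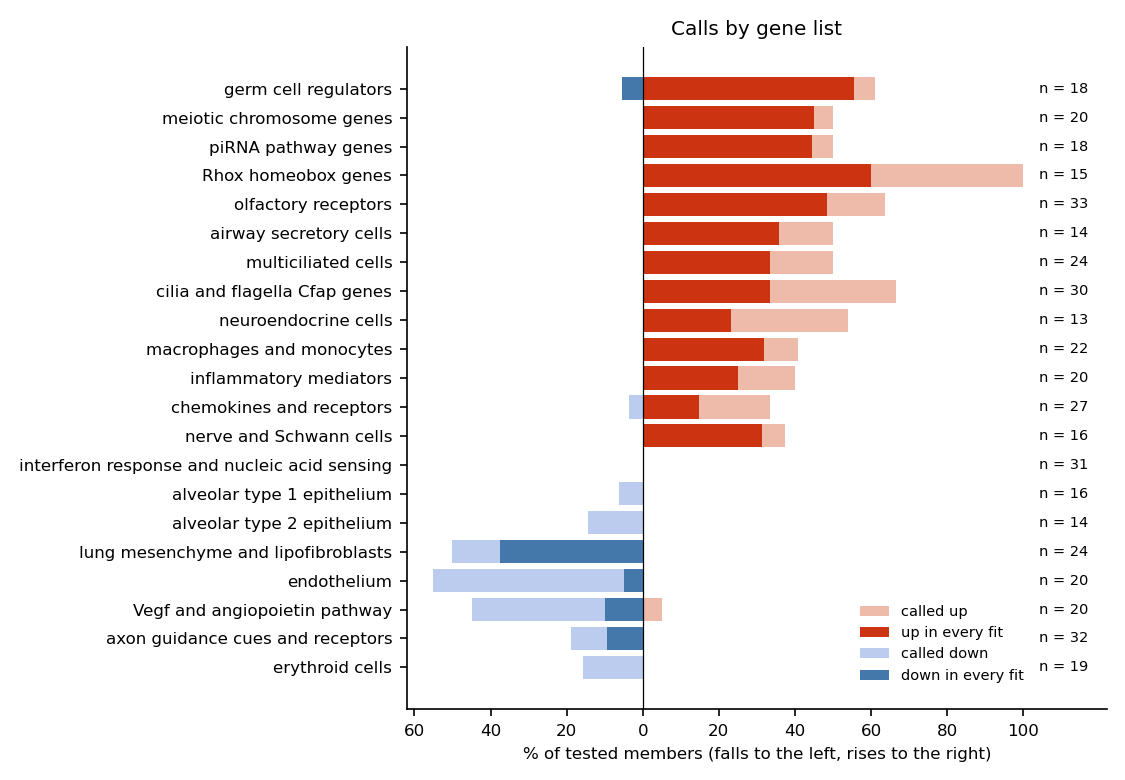
Percent of the tested members of 21 gene lists that were called up (right) or down (left), with the number of tested members at the right edge; dark bars are calls held in every fit and pale bars the remaining calls. Lung mesenchyme and endothelium extend to the left, the germline lists to the right, and 0 of 31 interferon response genes were called. The shares of the germline, Rhox and olfactory lists are set in part by the filter.

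Among genes of lung cell types, those of airway epithelium rose in part. Of 14 tested genes of airway secretory cells 7 rose, 5 of them in every fit (median 1.06), and their summed level was 1734 to 2671 CPM in wild type and 3548 to 5182 CPM in weak CKO. Scgb3a2, a secretoglobin of the airway, was at 771, 580.3 and 588 CPM in wild type and 1628, 1224 and 1426 CPM in weak CKO (1.14 ± 0.16). Bpifb1, a secreted protein of mucous airway cells, was at 1.40, 0.807 and 0.965 CPM in wild type and 5.31, 4.59 and 3.82 CPM in weak CKO (2.12 ± 0.28). Aldh1a1, an enzyme that makes retinoic acid and is found in club and ciliated cells, was at 112, 103 and 89.03 CPM in wild type and 207, 168 and 151 CPM in weak CKO (0.79 ± 0.12). The groups did not overlap in any of these genes. In whole lung a larger share of airway cells and more RNA per cell cannot be told apart, and the same holds for every cell type named below.

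Multiciliated cell genes rose by smaller and more even amounts. Of 24 tested members 12 rose, 8 of them in every fit (median 0.75). Rsph1, a radial spoke protein of cilia, was at 18.4, 17.64 and 17.9 CPM in wild type and 32.05, 31.5 and 33.03 CPM in weak CKO (0.84 ± 0.07), with replicates that differed by less than 2 CPM within each group. Ccno, which drives the making of basal bodies, was at 9.32, 8.56 and 8.06 CPM in wild type and 17.8, 15.7 and 14.9 CPM in weak CKO (0.90 ± 0.12), and Dnah11, an outer arm dynein, at 26.8, 30.5 and 21.2 CPM in wild type and 82.4, 80.03 and 54.3 CPM in weak CKO (1.46 ± 0.17). In the family of axonemal dyneins and their assembly factors 2 of 22 tested genes rose, a share of 9.09% that equals that of all genes tested. Dnah11 was among them as the 1 that held in every fit. In this family 1 was called without MUT_W_265_2 or MUT_W_268_3, and DESeq2 called 7. Of 30 tested Cfap genes, which encode proteins of cilia and flagella, 20 rose, 10 in every fit, and 11 were called without MUT_W_265_2 or MUT_W_268_3 and 12 in the erythroid-adjusted fit. Among genes of neuroendocrine cells, the rare sensory cells of the airway, 7 of 13 rose, 3 in every fit, among them the granule protein gene Chga (1.60 ± 0.31) and Uchl1 (0.88 ± 0.15). Leaving out any library but WT_265_1 left 3 or 4 of the 7 calls, and the erythroid-adjusted fit left 3. The summed level of the 13 genes was 204 to 258 CPM in wild type and 198 to 235 CPM in weak CKO, so the groups overlapped. Of 8 tested genes of basal and squamous epithelium 4 rose and 1 fell, 3 and 1 of them in every fit, and the summed level overlapped between wild type (35.4 to 44.1 CPM) and weak CKO (42.1 to 56.2 CPM). The fall was in Col17a1, a collagen that anchors basal cells (13.1, 9.63 and 8.68 CPM in wild type and 5.76, 6.68 and 4.92 CPM in weak CKO; −0.85 ± 0.17), and its call ended in the erythroid-adjusted fit (adjusted p = 0.0993). Among the rises were Trp63, a transcription factor of basal cells, at 0.523, 0.840 and 0.996 CPM in wild type and 2.76, 1.85 and 2.73 CPM in weak CKO (1.62 ± 0.28) and the nerve growth factor receptor gene Ngfr at 0.558, 0.291 and 0.280 CPM in wild type and 3.51, 5.28 and 4.14 CPM in weak CKO (3.52 ± 0.30).

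Alveolar epithelium gave few calls. Of 14 tested genes of alveolar type 2 cells, which make surfactant, 2 fell, neither in every fit (median −0.15), and of 16 tested genes of the flat alveolar type 1 cells 1 fell, not in every fit (median −0.26). With 1 library left out the falls numbered 0 to 3 in each list: 0 in the type 2 list without MUT_W_265_2, 0 in the type 1 list without WT_265_1 or MUT_W_268_3, and 3 in the type 1 list without WT_549_2. In the erythroid-adjusted fit both lists had 0. Etv5, an Fgf-induced transcription factor, went from 179, 168 and 164 to 123, 142 and 126 CPM (−0.39 ± 0.08), a call that ended without MUT_W_265_2, and Lmo7 from 1156, 1148 and 893 to 893, 781 and 775 CPM (−0.38 ± 0.11), a call that ended without any of the weak CKO libraries, WT_265_1 or WT_268_1. The groups overlapped for Lmo7. The 3 lung surfactant genes Sftpc (−0.17), Sftpb (−0.29) and Sftpd (0.40), picked after their values were seen, were not called.

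Genes of the lung mesenchyme fell in part. Of 24 tested members 12 fell, 9 of them in every fit, and the median was −0.56; the summed level was 8957 to 9738 CPM in wild type and 5934 to 6233 CPM in weak CKO. Wnt2, the mesenchymal signal that supports lung growth, was at 73.2, 75.3 and 69.8 CPM in wild type and 29.6, 31.7 and 39.6 CPM in weak CKO (−1.11 ± 0.13; adjusted p = 0.000477). Nebl, an actin-binding protein, was at 239, 254 and 236 CPM in wild type and 140.5, 121.6 and 141 CPM in weak CKO (−0.85 ± 0.08), and Gyg, which primes glycogen synthesis, at 774, 666 and 626 CPM in wild type and 311, 348 and 381 CPM in weak CKO (−0.99 ± 0.11). Limch1, an actomyosin regulator of lung fibroblasts, was at 1179, 963 and 991 CPM in wild type and 592, 548 and 586 CPM in weak CKO (−0.86 ± 0.13). None of these genes overlapped between groups, and MUT_W_549_3 was the weak CKO library nearest to wild type for Wnt2 and Gyg but not for Limch1. Tcf21, a transcription factor of lung lipofibroblast precursors, went from 433, 386 and 342 to 290.2, 239 and 258 CPM (−0.56 ± 0.11), a call that ended in the erythroid-adjusted fit (−0.40, adjusted p = 0.0779). Members without a call, picked after their values were seen, included the branching signal Fgf10 (−0.39, adjusted p = 0.17) and the transcription factor gene Foxf1 (−0.41, adjusted p = 0.108).

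Smooth muscle and pericyte genes gave mixed values. Of 18 tested smooth muscle and myofibroblast genes 3 rose and 2 fell (median −0.01). Of these 1 held in every fit, the rise of the contractile protein gene Cnn1. Cnn1 was at 2.97, 4.59 and 2.43 CPM in wild type and 6.98, 8.80 and 8.55 CPM in weak CKO (1.29 ± 0.23). Its call ended in the erythroid-adjusted fit (1.07, adjusted p = 0.0629). Of 16 tested pericyte genes 3 rose and 3 fell in edgeR, but none in every fit (median −0.38); with 1 library left out the rises numbered 1 to 3 and the falls 0 to 6, lowest without WT_549_2, MUT_W_265_2 or MUT_W_268_3 and highest without MUT_W_549_3. For Kcnj8, a potassium channel of pericytes, the values were 17.62, 17.4 and 17.9 CPM in wild type and 29.4, 28.9 and 22.3 CPM in weak CKO (0.61 ± 0.14), and the call ended without MUT_W_265_2 or MUT_W_268_3.

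Matrix genes moved in both directions, with the fibulin gene Fbln1 and some collagens higher and fibronectin lower. Fn1, fibronectin, lost more CPM than any other gene that held in every fit, from 6671, 6044 and 4196 CPM in wild type to 2993, 1888 and 2198 CPM in weak CKO (−1.26 ± 0.20; adjusted p = 0.00268). The wild type libraries spread widely and WT_549_2 was the lowest of them, yet the highest weak CKO library stayed below it. Mfap4, a microfibril protein of elastic fibres, went from 2574, 2902 and 3166 to 1576, 1452 and 1899.7 CPM (−0.81 ± 0.13). Frem1, a basement membrane protein, was at 427, 603 and 481 CPM in wild type and 221, 214 and 243 CPM in weak CKO (−1.16 ± 0.15). Fbln1, a fibulin of elastic fibres and basement membranes, rose from 44.8, 57.6 and 59.7 to 149, 149 and 146 CPM (1.45 ± 0.12; adjusted p = 5.26e-05). Aspn, a small leucine-rich matrix protein, was at 91.6, 96.8 and 69.3 CPM in wild type and 319, 247 and 207 CPM in weak CKO (1.58 ± 0.17). In these rises, too, all weak CKO libraries lay above all wild type libraries.

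Of 43 tested collagen genes 11 rose and 6 fell, 6 and 5 of them in every fit, with a median of −0.09; the number of rises was 6 without WT_549_2, MUT_W_265_2 or MUT_W_268_3 and 5 in the erythroid-adjusted fit. Col8a2, a network collagen, was at 9.28, 9.69 and 6.72 CPM in wild type and 28.4, 28.01 and 23.6 CPM in weak CKO (1.64 ± 0.15), and Col16a1, which binds fibrillar collagens, at 68.7, 89.2 and 76.6 CPM in wild type and 144, 169 and 149 CPM in weak CKO (0.98 ± 0.11). Col26a1 was at 3.87, 4.13 and 3.17 CPM in wild type and 10.7, 10.7 and 8.33 CPM in weak CKO (1.41 ± 0.19), and the fibril collagen Col11a1 at 5.55, 5.75 and 5.82 CPM in wild type and 11.5, 12.5 and 12.001 CPM in weak CKO (1.07 ± 0.13). On the other side, Col25a1, a membrane-bound collagen, was at 149, 144 and 139 CPM in wild type and 44.04, 48.8 and 62.7 CPM in weak CKO (−1.47 ± 0.19), Col24a1 at 13.3, 13.3 and 20.4 CPM in wild type and 4.02, 5.88 and 7.02 CPM in weak CKO (−1.47 ± 0.28) and Col6a4 at 10.4, 12.4 and 12.2 CPM in wild type and 1.84, 3.49 and 2.13 CPM in weak CKO (−2.22 ± 0.22). The groups did not overlap in any of the 7. Of 22 tested elastic fibre genes 6 rose and 1 fell, 2 and 1 of them in every fit. Without MUT_W_268_3 and in the erythroid-adjusted fit the rises numbered 2. Elastin itself, Eln, picked after its value was seen, was not called (−0.17).

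Matrix proteases of the Adam and Adamts families moved in both directions. Of 37 tested Adam and Adamts genes 10 fell and 5 rose, 5 and 3 of them in every fit. The falls numbered 5 or 6 without WT_268_1, MUT_W_265_2 or MUT_W_549_3 and 4 in the erythroid-adjusted fit, and the rises 3 without MUT_W_268_3 or in that fit. Adamts17 was at 257, 252 and 228 CPM in wild type and 96.5, 91.3 and 115 CPM in weak CKO (−1.28 ± 0.21), and Adamts9, which cleaves versican, at 246, 258 and 216 CPM in wild type and 146, 143 and 160.4 CPM in weak CKO (−0.68 ± 0.08). Adamts4, an aggrecanase, rose from 3.77, 6.01 and 5.60 to 12.3, 11.9 and 9.18 CPM (1.11 ± 0.22), a call that ended in the erythroid-adjusted fit (1.06, adjusted p = 0.0587). Among integrins, receptors for the matrix, Itga8 fell from 304, 248 and 224 to 152, 160.1 and 152 CPM (−0.74 ± 0.10), and Itgb8, which activates latent TGF-beta, rose from 1.85, 3.13 and 2.15 to 6.40, 7.43 and 6.49 CPM (1.51 ± 0.20). The serpin Serpine2, an inhibitor of thrombin and urokinase, was at 187, 206 and 203 CPM in wild type and 327, 366 and 299 CPM in weak CKO (0.73 ± 0.09).

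**Figure D5:**
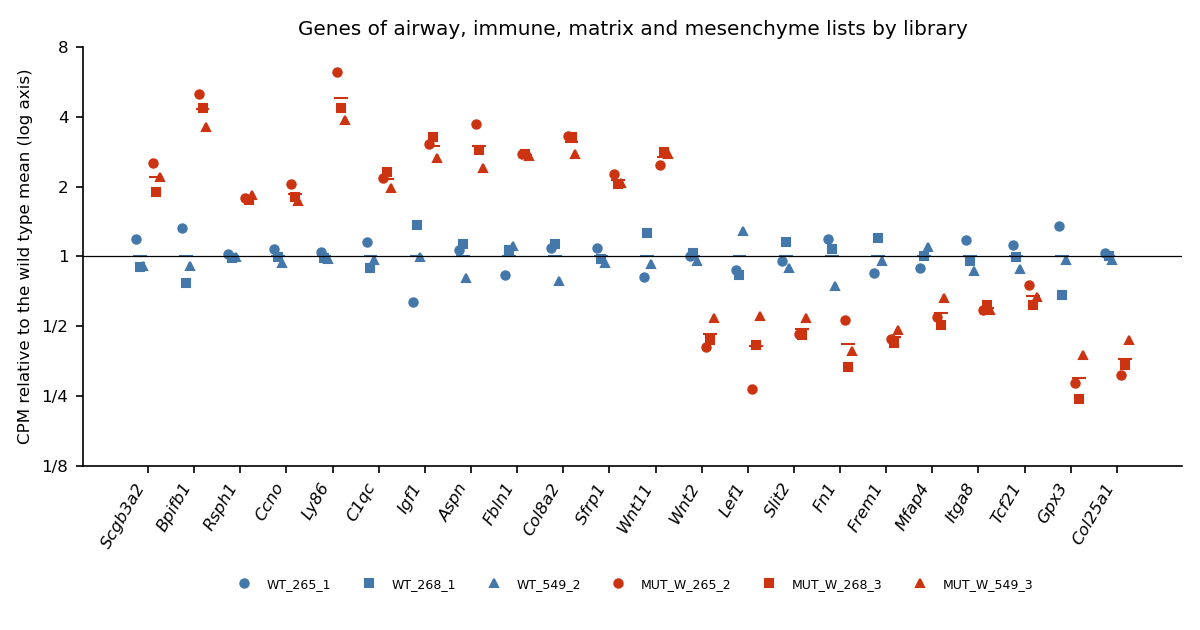
CPM of 22 genes relative to the wild type mean of each (vertical log axis), in the 3 wild type libraries (blue) and the 3 weak CKO libraries (red), with lines at group means. From Scgb3a2 to Wnt11 all red points lie above the blue ones, and from Wnt2 to Col25a1 all lie below.

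Within several signalling pathways some genes rose and others fell. In the Wnt pathway 36 genes were tested, and 6 rose and 3 fell, 4 and 2 of them in every fit. Besides the fall of Wnt2, the ligand gene Wnt11 rose (5.79, 8.91 and 6.54 CPM in wild type and 17.5, 19.98 and 19.6 CPM in weak CKO; 1.42 ± 0.16). The ligand gene Wnt4 was at 2.90, 2.84 and 3.45 CPM in wild type and 5.62, 6.26 and 6.11 CPM in weak CKO (0.97 ± 0.17), a call that ended in the erythroid-adjusted fit (0.75, adjusted p = 0.0613). Among antagonists and receptors, Sfrp1, a secreted antagonist, was at 14.3, 12.8 and 12.4 CPM in wild type and 29.8, 26.96 and 27.3 CPM in weak CKO (1.09 ± 0.09; adjusted p = 4e-05) and the receptor gene Fzd1 at 100.1, 90.9 and 88.1 CPM in wild type and 138, 137 and 124.6 CPM in weak CKO (0.52 ± 0.07). Among nuclear effectors and targets, Lef1 was at 9.35, 8.91 and 13.8 CPM in wild type and 2.86, 4.41 and 5.92 CPM in weak CKO (−1.28 ± 0.25), and the target Axin2, picked after its value was seen, was not called (−0.02, adjusted p = 0.904).

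In the Igf pathway the ligand gene Igf1 rose and the receptor genes Igf1r and Igf2r fell, while the ligand gene Igf2, given below, was not called. Igf1, a growth factor of mesenchyme and macrophages, was at 80.7, 173 and 126 CPM in wild type and 388, 413 and 337 CPM in weak CKO (1.58 ± 0.23; adjusted p = 0.00294). Although the wild type values differed more than 2-fold among themselves, the lowest weak CKO library lay above the highest wild type one. Igf1r, its receptor, was at 247, 246 and 232 CPM in wild type and 199, 183 and 179.9 CPM in weak CKO (−0.37 ± 0.07), and Igf2r, which clears Igf2, at 778, 800.1 and 762 CPM in wild type and 426, 423 and 500.1 CPM in weak CKO (−0.80 ± 0.11). Of 18 tested members of the Igf pathway 4 rose and 4 fell, 2 and 2 of them in every fit. Of 19 tested Fgf pathway genes 2 rose and 4 fell, with a median of −0.25. The 4 falls became 2 without MUT_W_268_3, and 1 without MUT_W_265_2 and in the erythroid-adjusted fit. Both rises and 1 fall held in every fit, with the ligand Fgf2 at 22.3, 22.7 and 22.4 CPM in wild type and 37.8, 38.4 and 33.2 CPM in weak CKO (0.70 ± 0.09), the receptor Fgfr1 at 61.9, 61.7 and 62.1 CPM in wild type and 86.03, 86.5 and 82.2 CPM in weak CKO (0.46 ± 0.06) and the feedback phosphatase Dusp6 at 123, 126 and 127 CPM in wild type and 81.8, 78.3 and 86.1 CPM in weak CKO (−0.61 ± 0.09).

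Of 15 hedgehog pathway genes 5 rose and 2 fell, and 2 of the rises and 0 of the falls held in every fit. The held rises were of the co-receptor genes Boc and Gas1. Boc was at 67.1, 72.8 and 72.97 CPM in wild type and 113, 109 and 98.8 CPM in weak CKO (0.59 ± 0.08). Gas1 was at 23.8, 18.8 and 22.7 CPM in wild type and 43.7, 39.04 and 38.2 CPM in weak CKO (0.89 ± 0.11). For platelet-derived growth factor, the receptor gene Pdgfra fell from 316, 254 and 307 to 188, 192 and 212 CPM (−0.57 ± 0.09), while Pdgfrl, a related gene without a kinase domain, was at 4.47, 4.43 and 4.89 CPM in wild type and 7.70, 8.44 and 8.40 CPM in weak CKO (0.83 ± 0.11). Of 36 tested Bmp and Tgf-beta genes 5 rose and 5 fell (13.9% each, against 9.09% and 5.38% of all genes). With 1 library left out the rises numbered 1 to 4 and the falls 1 to 7. In every fit 1 rose and 1 fell, the ligand gene Tgfb3 (0.47 ± 0.07) and the co-receptor gene Tgfbr3 (−0.52 ± 0.09). In the Notch pathway 19 genes were tested, and 2 rose and 3 fell, with 0 of the rises held in every fit. The falls that held were those of the ligand gene Jag2 (−0.47 ± 0.09) and the endothelial receptor gene Notch4 (−0.53 ± 0.10). Of 17 tested retinoic acid genes 6 rose, 3 in every fit, among them the retinol carrier gene Rbp4 (4.54, 2.16 and 3.02 CPM in wild type and 9.81, 10.6 and 7.96 CPM in weak CKO; 1.55 ± 0.26). Without WT_549_2 or MUT_W_268_3 that count was 3.

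Some guidance cues fell. Of 32 tested genes of axon guidance, whose ligands also pattern vessels and airways, 6 fell, 3 in every fit; without MUT_W_265_2 or MUT_W_268_3 the falls numbered 3. Slit2, the ligand of Robo receptors, was at 368, 441 and 343 CPM in wild type and 177, 175 and 209 CPM in weak CKO (−1.04 ± 0.14), and Epha3, an ephrin receptor, at 152, 137 and 148 CPM in wild type and 102, 66.99 and 82.4 CPM in weak CKO (−0.80 ± 0.12). Ntn4, a laminin-like netrin, was at 28.1, 17.2 and 20.2 CPM in wild type and 12.02, 12.2 and 12.8 CPM in weak CKO (−0.82 ± 0.16), and its call ended in the erythroid-adjusted fit (−0.66, adjusted p = 0.0819).

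Endothelial genes were lower, with calls that single libraries decided. Of 20 tested general endothelial genes 11 fell, but 1 fall held in every fit, that of Sox17, a transcription factor of arterial endothelium, with 119, 88.6 and 115 CPM in wild type and 65.5, 66.01 and 74.5 CPM in weak CKO (−0.65 ± 0.11). The number of falls was 7 without WT_265_1, 2 without WT_549_2, 1 without MUT_W_265_2, 2 without MUT_W_268_3 and 3 in the erythroid-adjusted fit. With the Y-linked level added to the fit the number was 2. The median was −0.39 and the summed level was 3588 to 4451 CPM in wild type and 3099 to 3260 CPM in weak CKO. Of 14 tested lung capillary genes 4 fell, 2 in every fit, namely Cd93 (566, 548 and 622 CPM in wild type and 416, 437 and 460.4 CPM in weak CKO; −0.40 ± 0.08) and Tbx2, a transcription factor shared with mesenchyme (412, 444 and 425 CPM in wild type and 245, 260.1 and 327 CPM in weak CKO; −0.62 ± 0.11). The fall count there was 2 without MUT_W_265_2 and 7 without MUT_W_549_3. Gja5, an arterial connexin, was at 77.4, 65.4 and 82.2 CPM in wild type and 49.4, 47.4 and 56.2 CPM in weak CKO (−0.56 ± 0.10).

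Of 20 tested genes of the Vegf and angiopoietin pathway, which governs vessel growth, 9 fell, 2 in every fit, and 1 rose. Vegfd, a ligand that acts on lymphatic and blood vessels, was at 86.1, 112 and 103 CPM in wild type and 54.5, 58.8 and 69.8 CPM in weak CKO (−0.71 ± 0.12), and Adm, the vasoactive peptide adrenomedullin, at 10.6, 6.07 and 8.09 CPM in wild type and 4.09, 3.13 and 3.42 CPM in weak CKO (−1.22 ± 0.21). The fall count was 5 without WT_265_1, 2 without MUT_W_265_2, 3 without MUT_W_268_3 and 3 in the erythroid-adjusted fit. Erythroid genes moved with these lists: of 19 tested, 3 fell (0 without MUT_W_268_3), none in every fit, with a median of −0.47 and a summed level of 4094 to 7565 CPM in wild type and 3896 to 4517 CPM in weak CKO. Hbb-bs, an adult beta globin, was at 4787, 2536 and 3399.7 CPM in wild type and 2728, 2590.2 and 2408 CPM in weak CKO (−0.47 ± 0.28; adjusted p = 0.307), and Hba-a1 at 873, 431 and 573 CPM in wild type and 591, 471 and 467 CPM in weak CKO; both overlapped between groups. The part of blood content in the vessel results was not tested beyond that fit.

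Macrophage genes rose in part. Of 22 tested members 9 rose, 7 of them in every fit (median 0.71); 16 rose without WT_265_1 and 17 in the erythroid-adjusted fit. Their summed level was 400.5 to 597 CPM in wild type and 672 to 926 CPM in weak CKO. Ly86, which partners a Toll-like receptor relative, was at 12.04, 11.4 and 11.3 CPM in wild type and 72.2, 50.4 and 44.6 CPM in weak CKO (2.27 ± 0.20; adjusted p = 0.000108). The complement gene C1qc was at 20.7, 16.02 and 17.3 CPM in wild type and 39.3, 41.6 and 35.4 CPM in weak CKO (1.11 ± 0.15). Trem2, a lipid-sensing receptor of macrophages, was at 3.11, 2.87 and 3.61 CPM in wild type and 5.62, 8.83 and 6.58 CPM in weak CKO (1.13 ± 0.18). Every weak CKO library exceeded every wild type library in these genes. Slc40a1, the iron exporter ferroportin of macrophages, was at 37.1, 34.4 and 33.2 CPM in wild type and 74.1, 169 and 121 CPM in weak CKO (1.80 ± 0.26), and the weak CKO libraries differed more than 2-fold from each other.

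Inflammatory genes were raised in a selected set. Of 20 tested mediators 8 rose, 5 of them in every fit, and 5 were called without WT_549_2, MUT_W_265_2 or MUT_W_268_3. Saa3, an acute phase protein, was at 2.13, 0.872 and 2.61 CPM in wild type and 188, 94.6 and 131 CPM in weak CKO (6.20 ± 0.41). Ccl2, which attracts monocytes, was at 0.349, 0.614 and 0.498 CPM in wild type and 6.44, 7.90 and 5.51 CPM in weak CKO (3.75 ± 0.46), and Il1rl1, the receptor of interleukin 33, at 2.97, 2.78 and 2.96 CPM in wild type and 15.3, 9.54 and 8.68 CPM in weak CKO (1.94 ± 0.38). Of 27 tested chemokines and receptors 9 rose and 1 fell, and 4 of the rises and 0 of the falls held in every fit. Among the held rises was the eosinophil attractant gene Ccl11. It was at 6.11, 6.85 and 5.07 CPM in wild type and 30.8, 16.7 and 19.3 CPM in weak CKO (1.89 ± 0.30). The summed level of the list overlapped between wild type (2034 to 2965 CPM) and weak CKO (1996 to 2290 CPM). Of 17 tested genes of neutrophils and mast cells 3 rose and 1 fell, 0 of them in every fit. The median of that list was −0.31, and 7 of the 17 had a change above 0. Among its rises, the mast cell protease gene Cma1 was at 4.54, 1.36 and 3.05 CPM in wild type and 31.03, 25.2 and 19.9 CPM in weak CKO (3.09 ± 0.62), a call that ended without WT_549_2, MUT_W_265_2 or MUT_W_268_3. Against these, 0 of 31 interferon response and nucleic acid sensing genes and 0 of 19 antigen presentation genes were called by edgeR or DESeq2. At an unadjusted p under 0.05 there were 0 and 1. The erythroid-adjusted fit called 3 of the 19 up, among them B2m, the light chain of class I molecules (0.82 there and 0.22 without the adjustment). The RNA sensor gene Ddx58 was at 104.2, 76.5 and 89.2 CPM in wild type and 95.8, 75.8 and 67.995 CPM in weak CKO and the interferon signalling gene Irf9 at 103.6, 58.4 and 80.6 CPM in wild type and 79.7, 64.5 and 53.7 CPM in weak CKO. Lymphocyte genes (8 tested) and platelet genes (12 tested) gave 0 calls in edgeR, and DESeq2 called 1 of each up, as did an unadjusted p under 0.05.

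Genes of nerve and Schwann cells rose in part, 6 of 16 tested and 5 in every fit (median 0.72). Sox10, the transcription factor that defines the Schwann cell lineage, was at 0.314, 0.194 and 0.249 CPM in wild type and 1.16, 1.04 and 0.909 CPM in weak CKO (2.03 ± 0.30), and Prph, an intermediate filament of peripheral neurons, at 0.314, 0.452 and 0.218 CPM in wild type and 1.19, 2.21 and 1.60 CPM in weak CKO (2.34 ± 0.36). Whether nerve tissue differed in amount was not tested. Of 17 tested striated muscle genes 4 rose and 1 fell, and 2 of the rises and 0 of the falls held in every fit. Myh3, the embryonic myosin, was at 0.279, 0.194 and 0.187 CPM in wild type and 1.43, 1.16 and 1.10 CPM in weak CKO (2.47 ± 0.30).

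Imprinted genes, which are expressed from the allele of 1 parent under the control of inherited methylation, moved both ways. Of 42 tested 6 rose and 6 fell (14.3% each, against 9.09% and 5.38% of all genes). With 1 library left out the rises numbered 2 to 8 and the falls 2 to 7. In every fit 2 rose and 2 fell, and the median was −0.03. H19, a maternally expressed noncoding RNA, gained more CPM than any other gene that held in every fit, from 1012, 1073 and 995 to 2006, 1915 and 1997 CPM (0.94 ± 0.10; adjusted p = 0.000278). Its neighbour Igf2, picked after its values were seen, was at 12.8, 17.1 and 9.68 CPM in wild type and 10.6, 9.46 and 10.3 CPM in weak CKO (−0.38, adjusted p = 0.184) and was not called. Its span overlaps that of the antisense gene Igf2os, and whether the counting used strand was not given in the sources, so this level is uncertain. Igf2r, given above, was the larger of the held falls, and Peg13 was at 47.8, 44.9 and 43.6 CPM in wild type and 35.8, 33.9 and 29.8 CPM in weak CKO (−0.45 ± 0.08). These counts are of whole genes and do not show from which allele the RNA came.

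Of 30 tested p53 target genes, which act in stress and cell death, 7 rose, 4 of them in every fit (median 0.16). The 7 became 4 without MUT_W_265_2 and 5 in the erythroid-adjusted fit. Plk2, a kinase named after its values were seen, was the 1 member that fell (−0.34), a call that ended without any 1 library but WT_265_1. Gdf15, a stress hormone, was at 0.174, 0.226 and 0.218 CPM in wild type and 0.886, 1.37 and 0.909 CPM in weak CKO (2.33 ± 0.32), and Eda2r, a death receptor relative on chromosome X, at 1.81, 1.29 and 1.24 CPM in wild type and 5.86, 8.56 and 3.23 CPM in weak CKO (2.02 ± 0.33). Zmat3, a p53 target that binds RNA, was at 22.1, 22.3 and 21.1 CPM in wild type and 32.1, 32.1 and 26.1 CPM in weak CKO (0.47 ± 0.09), and Bbc3, the pro-apoptotic protein Puma, at 12.6, 11.8 and 13.3 CPM in wild type and 16.8, 16.3 and 17.61 CPM in weak CKO (0.43 ± 0.09). Of 32 cell cycle genes 3 rose (9.4%), near the 9.09% of all genes tested. Of these 2 held in every fit, the cyclin gene Ccnd2 (164, 183 and 176 CPM in wild type and 332, 308 and 305 CPM in weak CKO; 0.85 ± 0.08) and the inhibitor locus Cdkn2a, with few reads (0.0698, 0.0969 and 0.0622 CPM in wild type and 0.341, 0.388 and 0.439 CPM in weak CKO; 2.29 ± 0.40). The 7 tested protein-coding genes of the mitochondrial genome gave 0 calls in edgeR and DESeq2 and 0 at an unadjusted p under 0.05.

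The largest falls among genes with a mean log2 CPM of at least 1 were in genes of many roles. Slc13a4, a sulfate transporter, was at 13.05, 6.04 and 11.9 CPM in wild type and 1.67, 0.984 and 2.16 CPM in weak CKO (−2.69 ± 0.34; adjusted p = 0.000788). The complement gene C7 was at 56.5, 36.2 and 37.4 CPM in wild type and 10.3, 6.71 and 7.86 CPM in weak CKO (−2.39 ± 0.24; adjusted p = 0.000282), and Shisa6, a regulator of glutamate receptors, at 11.5, 14.1 and 12.8 CPM in wild type and 2.21, 2.89 and 3.04 CPM in weak CKO (−2.24 ± 0.19). All weak CKO values of these genes lay well below the lowest wild type value. Gpx3, a secreted glutathione peroxidase, was at 483, 245 and 345 CPM in wild type and 102, 86.7 and 134 CPM in weak CKO (−1.74 ± 0.26), and Mapt, the microtubule protein tau, went from 112, 88.5 and 113 to 27.04, 28.8 and 44.8 CPM (−1.64 ± 0.26). Adrb3, an adrenergic receptor known from fat cells, was at 13.2, 8.56 and 11.3 CPM in wild type and 3.51, 2.54 and 4.73 CPM in weak CKO (−1.62 ± 0.28), and Cyp2e1, a cytochrome P450, at 14.03, 12.8 and 12.9 CPM in wild type and 3.85, 5.82 and 4.07 CPM in weak CKO (−1.53 ± 0.22). Aspa (−2.23), Pcdh20 (−2.08), Mchr1 (−1.94), Mettl21e (−1.92), Abca6 (−1.78), Hpca (−1.69) and Gprc6a (−1.53) were also among the 15 largest falls. Among genes with many reads, the focal adhesion gene Tns1 fell from 1999.8, 1912 and 1773 to 1044, 979.9 and 1160.3 CPM (−0.84 ± 0.10) and the cytoskeletal linker gene Macf1 from 3019, 3863 and 3142 to 2140.3, 2016 and 2027 CPM (−0.70 ± 0.14).

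MUT_W_549_3 lay nearer to wild type than the other weak CKO libraries in most of the larger changes. Among the 228 rises over 8-fold it was the lowest of the 3 in 185 and the highest in 17, and its median ratio to the group mean was 0.764, against 1.11 in MUT_W_265_2 and 1.13 in MUT_W_268_3. Among the 90 falls over 2-fold that held in every fit it was the lowest in 7, with a median ratio of 1.16, against 0.916 and 0.909. Its total was 31496025 counts, within the range of the other libraries.

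Against the strong CKO lungs, which share the alleles and bled widely, 1 of 19374 genes differed from weak CKO (0.00516%, edgeR). It was Rpl35a, a protein of the large ribosomal subunit, at 89.02, 78.99 and 77.6 CPM in the strong CKO libraries, 141, 149.6 and 163 CPM in weak CKO and 102, 92.2 and 96.7 CPM in wild type. A gene that missed the threshold there is not shown to be equal in both CKO groups. For Dazl the strong CKO values were 259, 201 and 287 CPM, and for Wnt2 21.01, 28.9 and 27.3 CPM.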

How the data were processed

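The authors deposited 1 table with read counts and RPKM values per gene for 9 libraries; the submitters' processing notes name the build GRCm38.p6, the aligner STAR, read trimming tools (cutadapt 2.5, Trimmomatic 0.36), FastQC 0.11.8 and edgeR 3.28.1, with no further settings. The deposited counts were used here. The deposited RPKM values were not, because the gene length in the table matches the summed exons of all transcripts of a gene (median ratio 1.0029) and exceeds the merged exons by a median of 1.2932 times. Levels per kilobase therefore use CPM over merged exons of GENCODE M21, where 27173 of 27207 identifiers were found.

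Counts were fitted in R 4.3.3 with edgeR 4.0.16 (TMM factors, filterByExpr by group, robust quasi-likelihood test) over all 9 libraries, which share 1 estimate of spread (common BCV 0.1497), with Benjamini-Hochberg adjustment over 19374 genes. CPM values are TMM-scaled, and SEs belong to the fitted log2 change. The median SD of log2 CPM over genes was 0.171 in wild type and 0.14 in weak CKO. Intervals of ratios are 95% and exact. The alternatives were upper quartile factors, DESeq2 1.42.0, no filter, only the 6 libraries, the library number as a block, each library left out, covariates for erythroid or Y-linked level, chromosomes X and Y left out, and a test against a fold of 1.5. The scripts were tested on simulated data.

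Named genes are Dnmt1 with the 15 largest rises and falls among calls that held in every fit (mean log2 CPM of at least 1, groups apart, no clone name), the 10 rises and falls with the largest difference in CPM, and up to 4 held calls per direction and list by adjusted p (otherwise 1 call, or 2 members with the highest CPM). From the lists the text gives a selection of these. Lists and comparison were chosen with earlier results of these data known. Libraries were grouped by their labels.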

Additional observations from a re-analysis of the deposited data

Results flagged for a closer look

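Rpl35a, a ribosomal protein gene, was the 1 named gene whose level differed between the strong and the weak CKO lungs by edgeR's test of that difference, with a log2 change of −0.89 in strong against weak CKO. The weak CKO libraries held 141, 149.6 and 163 CPM, above all 3 strong CKO libraries at 89.02, 78.99 and 77.6 CPM and all 3 wild type libraries at 102, 92.2 and 96.7 CPM. Reads of ribosomal protein genes can be shared with near-identical retrocopies, and the part of this in the value was not tested.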

How the results depend on the processing

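Each library left out in turn gave 1310 to 2828 calls, 966 to 1795 of them up and 344 to 1037 down. With the erythroid level as a covariate there were 1670 calls (1153 up, 517 down). With the Y-linked level there were 1911 (1285 up, 626 down), and past a fold of 1.5 there were 596 (517 up, 79 down). Same-numbered libraries were not treated as pairs, since 1 of the 3 pairs correlated below 0.1: deviations from the group means correlated at 0.2995 for WT_265_1 and MUT_W_265_2, −0.0869 for WT_268_1 and MUT_W_268_3 and 0.3462 for WT_549_2 and MUT_W_549_3, and among the weak CKO libraries WT_268_1 correlated best with MUT_W_265_2. As a hint from the data that the numbers may mark something shared, the second principal component (15.259% of the variance) ordered both groups by number, with WT_265_1 at 40.34 and MUT_W_265_2 at 21.08, WT_268_1 at 0.255 and MUT_W_268_3 at −3.05, and WT_549_2 at −30.645 and MUT_W_549_3 at −27.979. With the library number as a block 3926 genes were called, and Dnmt1 was among them (−0.50, adjusted p = 0.00867). Of 3642 values of named genes under an alternative 3566 kept direction and side of the threshold, 45 lost the call and 9 gained one with the same sign, and 22, all of genes without a call, changed sign. Of 231 named calls that held in every fit 15 ended with the erythroid covariate, among them Tcf21, Cnn1, Adamts4, Wnt4, Ntn4, Loxl2, Acan and Cxcl13; the cause was not tested. Counts of list members moved by over 1.5 times in 585 of 2550 values, 479 of them downward. Depth was even between libraries and limits genes with few reads, and 3 libraries a group limit small changes.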
